A study of Arabidopsis thaliana with 24 samples.

Results

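The response to 24 h at 4 °C was examined in seedlings of uap1-2, a line of Arabidopsis thaliana (Col-0 background) homozygous for a T-DNA insertion. The 4 uap1-2 libraries from the cold were set against the 4 uap1-2 control libraries across all genes, so 8 of the 24 libraries of the series were used for this comparison. The series measured transcript levels by RNA sequencing of whole seedlings on MS medium, and its title presents UAP1 as a splicing factor with a role in cold stress. Besides uap1-2 it holds wild-type Col-0 (WT), which carries no insertion, and uap1-1, another line homozygous for a T-DNA insertion in Col-0, each with 4 control and 4 cold libraries. By the labels, both uap1-2 groups carry the same insertion and differ in the treatment, with no hour of harvest given. Controls stayed at the standard growth temperature, and the cold group spent its last 24 h at 4 °C. The labels disagree on age: by the design text the cold began at 11 days and harvest was at 12 days, while the extraction protocol speaks of 10-day-old seedlings. Each group has 4 libraries, described there as independent biological replicates. The line uap1-2 is 1 insertion line, and since the labels name no locus for UAP1, the transcript of the mutated gene was not checked here.

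Plants of temperate climates raise their freezing tolerance during days of cold, a process called cold acclimation. In Arabidopsis the CBF transcription factors are induced early in the cold and bind the CRT/DRE element, with the core CCGAC, in promoters of COR genes, whose products protect membranes and proteins. Sugars and proline accumulate as compatible solutes, the hormone abscisic acid (ABA) acts on part of the same genes through another element, the ABRE with the core ACGTG, and growth slows.

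The uap1-2 libraries held 19545075 to 24917449 counts without cold and 19289385 to 23377361 after it. On the first principal component of the 8 libraries, which held 71.7% of the variance, the controls lay between -95.7 and -80.1 and the cold libraries between 75.9 and 95.4. Control replicate 3 lay at -63.3 on the second component (12.0% of the variance) against -7.43 to 46.7 for the other controls, and its median correlation with its group was 0.961, against 0.977 for each of the other controls. No replicate pair agreed within sampling noise (chi-square per degree of freedom 18.6 to 64.5). Genes that mark leaf tissue were abundant, and root markers were detected, as the labelled whole seedlings would hold. In such bulk samples, fewer cells of a type and less RNA per cell cannot be told apart.

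Cold changed the transcript level of a large share of the genes tested in uap1-2. Of 21428 genes tested, 11245 were called (52.5%), 5682 of them higher in the cold (26.5%) and 5563 lower (26%), at an adjusted p under 0.05 from the quasi-likelihood test of edgeR, with the Benjamini-Hochberg method applied over all genes tested and its result given as edgeR adjusted p. The number of calls was 10791 without control replicate 3. Where a list below has 0 calls in a direction by edgeR, it also had 0 genes of that direction at an unadjusted p under 0.05 and 0 calls by DESeq2. At least 2-fold changes were called for 3268 higher genes (15.3%) and 2959 lower genes (13.8%), and at least 4-fold changes for 1266 higher (5.91%) and 825 lower (3.85%). A change of at least 16-fold was found for 281 genes that rose and 80 that fell. The libraries of the conditions did not overlap for 5229 genes higher (24.4%) and 5125 genes lower (23.9%) in the cold. All genes had a median log2 fold change of -0.01, with the middle 50% of genes between -0.62 and 0.63. Levels are given as CPM, counts scaled to library size by the TMM method. Scaled by library totals alone, 4198 calls were higher and 6998 lower, which is 37.5% higher against 50.5%, and the median moved to -0.20, so changes of that size are read relative to it.

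**Figure D1:**
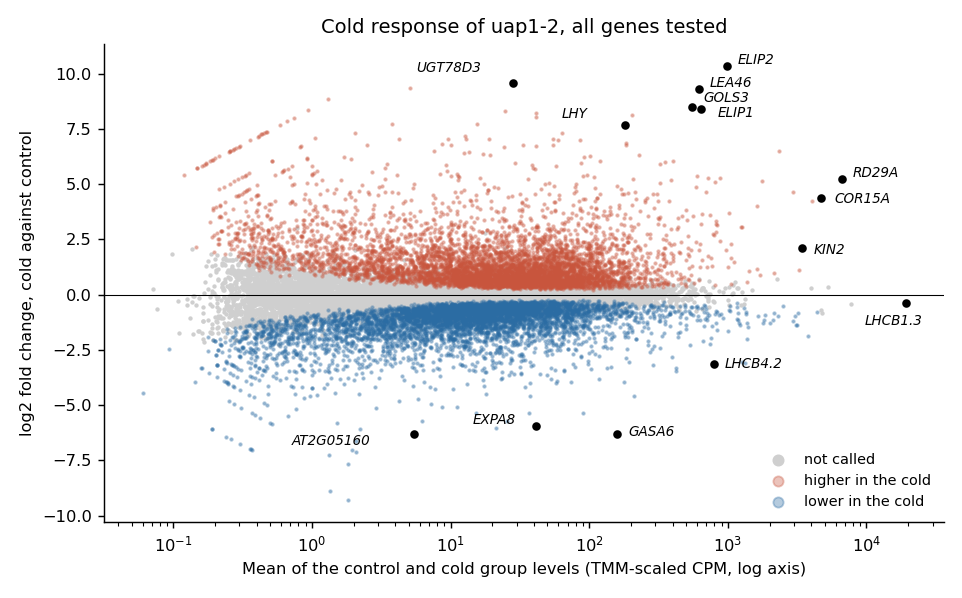
Each point is 1 of the 21428 genes tested in uap1-2, with the mean of its control and cold group levels (TMM-scaled CPM, log axis) across and its log2 fold change, cold against control, upward. Red points were called higher and blue points lower by edgeR, grey points were not called, and black points mark genes named in the text: ELIP2 stands highest among them at 10.35 and GASA6 lowest at -6.30.

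The genes that act before the CBF factors moved both ways. Of 24 upstream regulators tested, 7 rose and 6 fell (over all genes, 26.5% and 26%), with a median log2 fold change of 0.14. ICE1, which encodes a transcription factor that activates CBF genes, was at 52.7, 52.8, 44.7 and 56.1 CPM in the 4 control libraries and at 81.0, 104, 88.7 and 84.1 in the cold, and rose by 0.80 (SE 0.13) on the log2 scale. OST1, the gene of a kinase that stabilises ICE1, rose from 17.44 ± 2.16 to 84.3 ± 8.30 CPM (SD, n = 4), and PHYB, the gene of the light and temperature sensor phytochrome B, from 69.4 ± 9.66 to 167 ± 23.5 CPM. EGR2, which encodes a phosphatase that restrains OST1 in the cold, also rose, with a log2 fold change of 1.39 (SE 0.12). The genes of the ubiquitin ligases PUB25 and PUB26 fell, with log2 fold changes of -1.08 and -1.23. The bHLH factor gene PIF4, which promotes elongation growth, fell from 172 ± 25.3 to 27.4 ± 5.97 CPM, whereas its relative PIF7 rose by 2.098 on the log2 scale. The kinase genes MPK3 and MPK6 and the ethylene factor gene EIN3 were at log2 fold changes of -0.06, -0.05 and 0.01 and were not called.

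All 3 tandem CBF genes were higher in each cold library than in any control. CBF1 (AT4G25490, chromosome 4, 13021780 to 13022996, minus strand) was at 1.35, 0.817, 1.29 and 0.349 CPM in control replicates 1 to 4 and at 7.43, 3.83, 5.65 and 3.70 CPM in cold replicates 1 to 4 (log2 fold change 2.43, SE 0.48, edgeR adjusted p = 0.00018). CBF2 (AT4G25470, chromosome 4, 13015250 to 13016235, minus strand) was at 3.87, 2.27, 4.91 and 1.74 CPM in control and 71.0, 23.0, 43.3 and 39.5 CPM in the cold (log2 fold change 3.79, SE 0.49, edgeR adjusted p = 1.1e-06). CBF3 (AT4G25480, chromosome 4, 13018010 to 13019400, minus strand) was at 15.3, 14.1, 15.98 and 12.3 CPM in control and 141, 79.5, 105 and 121 CPM in the cold (log2 fold change 2.95, SE 0.21, edgeR adjusted p = 9.94e-11). Cold replicate 1 was the highest for each of the 3 genes and cold replicate 2 the lowest for CBF2 and CBF3. In the genome 11.0% of the 31-base words of CBF2 occur elsewhere, and the annotated gene AT4G07385 overlaps CBF3 on the opposite strand. Of 17 transcription factors of the first wave of the cold response, 16 rose and 0 fell, with a median log2 fold change of 2.64, and 17 rose without control replicate 3. The zinc finger genes ZAT12 and ZAT6 rose from 3.39 ± 3.59 to 62.6 ± 28.5 CPM and from 8.45 ± 7.36 to 161 ± 55.0 CPM. The AP2/ERF genes RAP2.1, a repressor of COR genes, and RAP2.6 rose by 4.57 and 4.72 on the log2 scale. CBF4, with 2 counts over the control libraries and 48 over the cold ones, is among those that rose. The exception was ERF6, at 0.48 (edgeR adjusted p = 0.412).

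The COR and LEA genes, whose products protect membranes, chloroplasts and proteins during cold and water loss, made up the list with the highest median after the 3 seed markers. Of 28 members tested, 26 rose and 0 fell, with a median log2 fold change of 3.21. Their summed level was 5417 to 6352 CPM in the control libraries and 56645 to 70032 CPM in the cold. The members that were not called were COR413-PM2 at -0.02 and the dehydrin gene HIRD11 at 0.58.

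RD29A (AT5G52310, chromosome 5, 21240717 to 21243644, plus strand), which encodes a hydrophilic protein and carries CRT/DRE elements in its promoter, was at 287, 357, 385 and 359 CPM in control and 12376, 12081, 12507 and 15019 CPM in the cold (log2 fold change 5.23, SE 0.27, edgeR adjusted p = 4.93e-13). COR15A (AT2G42540, chromosome 2, 17710441 to 17712330, minus strand), whose product stabilises chloroplast membranes, was at 489, 339.7, 463 and 464 CPM in control and 10338, 9117, 8315 and 7992 CPM in the cold (log2 fold change 4.35, SE 0.25, edgeR adjusted p = 2.16e-12). The dehydrin gene XERO2 (AT3G50970, chromosome 3, 18940643 to 18941611, plus strand) was at 57.9, 57.6, 53.5 and 35.7 CPM in control and 5525, 3410.4, 4418 and 5112 CPM in the cold (log2 fold change 6.49, SE 0.26, edgeR adjusted p = 8e-15). In each of the 3 genes every cold library was more than an order of magnitude above every control. The dehydrin gene COR47 rose from 412 ± 119 to 7689 ± 1493 CPM and KIN1 from 36.5 ± 10.1 to 1395 ± 148 CPM (SD, n = 4). KIN2, the neighbour of KIN1 on chromosome 5, started from a higher level and rose less, with 1383, 1082, 1526 and 1146 CPM in control and 7807, 4224, 5725 and 4603 CPM in the cold (log2 fold change 2.12, SE 0.35, edgeR adjusted p = 2.13e-05). COR15B, next to COR15A, went from 268 ± 45.6 to 2208 ± 284 CPM (log2 fold change 3.04, SE 0.16, edgeR adjusted p = 7.45e-13), and the gene AT2G42520 overlaps it on the opposite strand.

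The early light-induced proteins bind chlorophyll and protect the photosynthetic membrane when light exceeds its use. ELIP2 (AT4G14690, chromosome 4, 8418242 to 8419325, plus strand) was at 1.55, 1.17, 2.41 and 0.872 CPM in control and 2211, 1904, 1746 and 2012 CPM in the cold (log2 fold change 10.35, SE 0.36, edgeR adjusted p = 7.4e-16). ELIP1 (AT3G22840, chromosome 3, 8084405 to 8085669, minus strand) was at 5.61, 3.70, 3.41 and 2.53 CPM in control and 1265, 1341, 1332 and 1202 CPM in the cold (log2 fold change 8.39, SE 0.27, edgeR adjusted p = 5.47e-16). Both were at 5.61 CPM or less in every control and at 1202 CPM or more in every cold library.

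Per exonic length, COR transcripts stood among the most abundant of the cold seedlings. By the deposited FPKM values (counts scaled to exonic length and library total), KIN2 ranked 2 in the cold at 7144 ± 1787 FPKM (SD, n = 4) and 28 in control, COR15A 3 against 274, RD29A 5 against 663, XERO2 6 against 1832, and ELIP2 16 against 17334. The antenna protein gene LHCB1.3 ranked 1 in both conditions, at 19361 ± 2484 FPKM in control and 13238 ± 2298 in the cold. Of the 20 highest genes in each condition, 9 were in both lists.

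**Figure D2:**
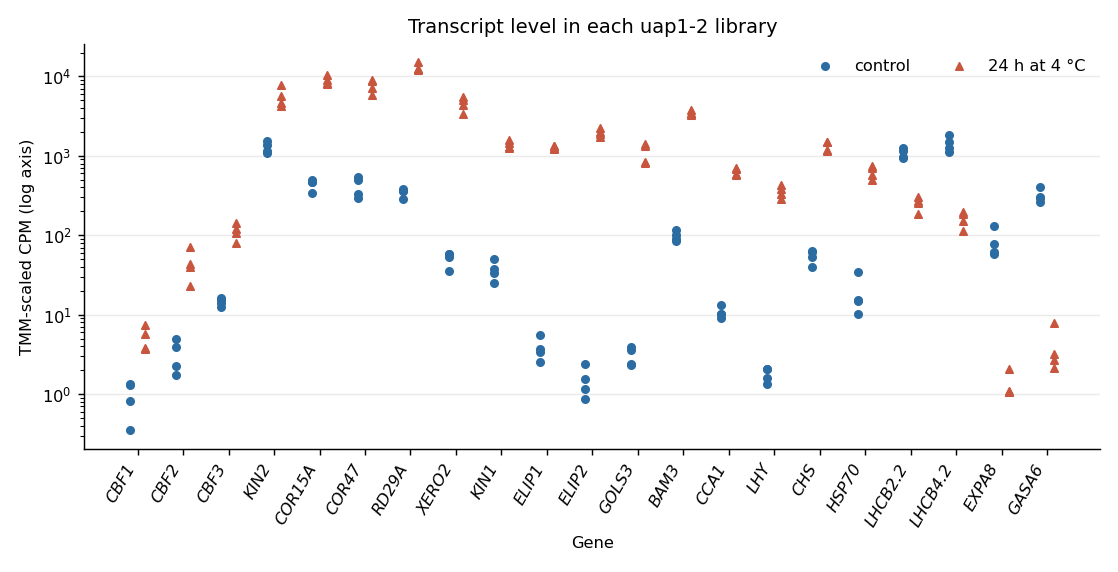
TMM-scaled CPM (log axis) of 21 genes in each of the 4 control (blue circles) and 4 cold (red triangles) libraries of uap1-2. From CBF1 to HSP70 each cold library lies above each control, and from LHCB2.2 to GASA6 each lies below; ELIP2 goes from 0.872 to 2.41 CPM in control to 1746 to 2211 CPM in the cold.

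Promoters of 4 cold-induced genes are shown. Each is given as the 250 bases before and 50 bases from the RefSeq gene start on the TAIR10.1 assembly, read 5′ to 3′ along the gene. Capitals mark CCGAC or its complement GTCGG in RD29A, COR15A and XERO2, the evening element AAAATATCT in XERO2, and ACGTG or its complement CACGT in LEA46; overlapping copies in CACGTG count on both strands, and other elements are left in lower case. The coordinates are chr5:21240467-21240766, plus strand for RD29A, chr2:17712281-17712580, minus strand for COR15A, chr3:18940393-18940692, plus strand for XERO2 and chr5:2090381-2090680, minus strand for LEA46.
RD29A: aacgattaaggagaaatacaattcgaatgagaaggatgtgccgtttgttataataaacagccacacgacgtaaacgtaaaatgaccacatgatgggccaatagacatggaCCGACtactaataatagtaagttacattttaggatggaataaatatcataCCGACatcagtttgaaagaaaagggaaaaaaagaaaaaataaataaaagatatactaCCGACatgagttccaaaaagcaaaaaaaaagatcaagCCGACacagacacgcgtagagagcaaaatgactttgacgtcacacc
COR15A: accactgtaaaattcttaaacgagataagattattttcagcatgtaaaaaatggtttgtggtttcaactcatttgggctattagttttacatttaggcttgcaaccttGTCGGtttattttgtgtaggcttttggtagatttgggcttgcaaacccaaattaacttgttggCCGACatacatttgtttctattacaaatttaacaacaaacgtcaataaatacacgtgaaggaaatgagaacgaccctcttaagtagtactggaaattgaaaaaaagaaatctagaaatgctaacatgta
XERO2: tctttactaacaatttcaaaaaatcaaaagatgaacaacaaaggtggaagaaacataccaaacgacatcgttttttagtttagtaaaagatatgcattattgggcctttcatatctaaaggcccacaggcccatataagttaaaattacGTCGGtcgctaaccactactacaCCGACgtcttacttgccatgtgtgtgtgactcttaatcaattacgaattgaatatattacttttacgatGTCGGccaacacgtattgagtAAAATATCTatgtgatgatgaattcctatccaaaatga
LEA46: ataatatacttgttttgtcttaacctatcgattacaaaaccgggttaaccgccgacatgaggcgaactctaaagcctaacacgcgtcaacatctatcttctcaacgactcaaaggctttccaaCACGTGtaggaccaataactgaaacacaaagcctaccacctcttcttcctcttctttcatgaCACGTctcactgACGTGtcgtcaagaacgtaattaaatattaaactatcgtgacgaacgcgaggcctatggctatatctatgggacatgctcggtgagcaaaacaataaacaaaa
The window of RD29A holds 4 copies of CCGAC, that of XERO2 holds 3 with 1 evening element, and that of COR15A holds 2. In lower case, the window of COR15A also holds 2 matches of ACGTG and that of XERO2 holds 1. LEA46 (AT5G06760), a group 4 LEA gene, holds 4 matches of ACGTG and, in lower case, 1 of CCGAC. Its level was 1.66, 1.78, 3.29 and 1.22 CPM in control and 1562, 965, 924 and 1503 CPM in the cold (log2 fold change 9.28, SE 0.58, edgeR adjusted p = 1.03e-11), without overlap. Among the promoters of the 29 listed COR and LEA genes, 8 held CCGAC, 6 the evening element and 16 ACGTG.

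Over the genome the same letters were counted on both strands of 27443 promoters. CCGAC was found in 15.0% of all promoters, in 25.7% of those of genes called at least 16-fold higher (67 of 261), in 21.4% at 4-fold or more higher (258 of 1206), in 10.9% at 4-fold or more lower (81 of 742) and in 15.2% of promoters of genes that were not called. ACGTG was found in 26.7% of all promoters, in 52.1%, 43.2% and 29.8% of these called groups in the same order, and in 26.4% where no change was called. The evening element had shares of 2.82%, 5.75%, 5.64%, 3.77% and 2.68% in that order, and the heat shock element core GAANNTTC had 11.6%, 14.9%, 14.3%, 11.3% and 11.4%. A match is a description of the sequence and not a site shown to be bound, and these shares were not tested.

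Genes of sugar and starch metabolism, which supply compatible solutes, rose more often than they fell. Of 34 tested, 20 rose and 9 fell, with a median log2 fold change of 1.14 and a summed level of 1781 to 2279 CPM in control and 9225 to 10948 in the cold. GOLS3, the gene of the cold-induced galactinol synthase that starts raffinose synthesis, was at 2.40, 3.62, 3.91 and 2.31 CPM in control and 1413, 845, 1343 and 821 CPM in the cold (log2 fold change 8.49, SE 0.34, edgeR adjusted p = 5.78e-15). SUS1, a sucrose synthase gene, was at 47.5, 47.7, 54.3 and 29.8 CPM in control and 1879.6, 1412, 1645 and 1954 CPM in the cold (log2 fold change 5.26, SE 0.25, edgeR adjusted p = 6.41e-14). BAM3, the gene of the main chloroplast beta-amylase that makes maltose from starch, was at 90.05, 85.2, 101 and 115 CPM in control and 3482, 3332, 3280.1 and 3724 CPM in the cold (log2 fold change 5.14, SE 0.21, edgeR adjusted p = 7.97e-15), and the annotated genes AT4G17085 and AT4G06665 overlap it on the opposite strand. In these 3 genes the groups did not overlap. Those that fell included SUS4 at -2.07, the vacuolar sugar transporter genes SWEET16 at -2.003 and ERDL6 at -1.48, and BAM6 at -2.10, whose call was lost without control replicate 4 (edgeR adjusted p = 0.0506). The rise of BAM5 rested on cold replicates 1 and 3: its levels were 6.30, 3.20, 1.17 and 1.79 CPM in control and 75.1, 2.41, 266 and 1.54 CPM in the cold, and the call was lost without cold replicate 3 (edgeR adjusted p = 0.0873).

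Among the proline genes, both genes of the entry step rose. P5CS1 and P5CS2 encode the rate-limiting enzyme of proline synthesis. P5CS1 was at 404, 375, 546 and 468 CPM in control and 868, 1409.8, 840.0 and 1253 CPM in the cold (log2 fold change 1.29, SE 0.26, edgeR adjusted p = 0.00026), with no overlap, and P5CS2 rose from 96.5 ± 14.8 to 1202 ± 54.3 CPM (SD, n = 4). PDH1, the proline dehydrogenase gene, was at 20.9, 52.4, 40.8 and 12.4 CPM in control and 60.4, 24.95, 36.8 and 69.8 CPM in the cold (log2 fold change 0.60, SE 0.39, edgeR adjusted p = 0.208), and the groups overlapped. Its relative PDH2 was called higher at 0.92, also with overlapping groups. In all, 4 of 8 proline genes rose and 2 fell, P5CR, of the last step, and PROT1, of a transporter (over all genes, 26.5% and 26%). However, the number that rose was 2 with library totals and without cold replicate 1 or 4 or control replicate 1, 2 or 4. The number that fell was 1 without control replicate 3, where PROT1 had an edgeR adjusted p of 0.0581.

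Membrane lipid genes had 11 of 18 higher and 3 lower (over all genes, 26.5% and 26%), with a median of 0.58. Among the lower genes, the call of FAD6 was lost in 4 of the 14 alternatives. FAD4, which encodes a desaturase of plastid phosphatidylglycerol, rose from 12.8 ± 4.03 to 59.1 ± 9.57 CPM (log2 fold change 2.21, SE 0.22, edgeR adjusted p = 2.13e-08). The desaturase gene ADS2 rose by 1.64, DGD1, which makes the galactolipid DGDG, by 1.60, and the phospholipase gene PLDALPHA1 by 1.54. The gene of the main extraplastidic oleate desaturase, FAD2, fell from 1259 ± 216 to 417 ± 28.6 CPM (log2 fold change -1.59, SE 0.20, edgeR adjusted p = 5.67e-07).

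ABA genes changed along the whole pathway. Of 38 tested, 24 rose and 9 fell, with a median log2 fold change of 1.51. NCED3, which encodes the rate-limiting step of ABA synthesis under stress, was at 11.99, 8.92, 17.8 and 11.5 CPM in control and 101, 80.2, 74.2 and 109 CPM in the cold (log2 fold change 2.86, SE 0.31, edgeR adjusted p = 5.79e-08). The short-chain dehydrogenase gene ABA2, a later step of ABA synthesis, fell from 16.5 ± 2.26 to 5.75 ± 0.753 CPM. CYP707A4, which encodes an ABA-degrading hydroxylase, rose from 0.919 ± 0.339 to 22.9 ± 3.98 CPM, and its relatives CYP707A1, CYP707A2 and CYP707A3 were also called higher, at 3.73, 2.53 and 1.69 on the log2 scale. NCED3 and the CYP707A genes, of making and degrading ABA, thus both stood higher.

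Receptors and phosphatases of ABA signalling went opposite ways. Of 9 receptor genes (PYR1 and its PYL relatives), 6 fell and PYL2 rose by 0.82, with PYR1 going from 51.3 ± 14.5 to 13.1 ± 3.67 CPM (log2 fold change -1.97, SE 0.34, edgeR adjusted p = 4.17e-05). The fall of PYL5 (-1.71) was lost without control replicate 3 (edgeR adjusted p = 0.0597). All 8 tested genes of clade A protein phosphatases, which hold the pathway off until ABA is bound, rose: HAI1 was at 18.17, 10.8, 16.1 and 15.4 CPM in control and 86.4, 71.7, 52.8 and 102 CPM in the cold (log2 fold change 2.37, SE 0.40, edgeR adjusted p = 2.89e-05), and HAI3 went from 0.115 ± 0.0878 to 6.63 ± 5.97 CPM. The kinase gene SNRK2.3 fell from 47.2 ± 2.95 to 9.82 ± 3.36 CPM, while its relative OST1 rose. The output genes RD20, of a calcium-binding protein of lipid bodies, and RD26, of a NAC transcription factor, rose by 3.87 and 3.79.

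Cold replicate 4 was the highest cold library for the ABA-responsive genes RD29B, LEA7, RAB18 and HAI3. RD29B was at 3.29, 2.27, 3.75 and 3.53 CPM in control and 308, 335, 233 and 589.5 CPM in the cold (log2 fold change 6.84, SE 0.67, edgeR adjusted p = 1.51e-08). LEA7 was at 1.66, 0.640, 0.708 and 0.916 CPM in control and 70.0, 105, 40.1 and 217 CPM in the cold (log2 fold change 6.77, SE 0.82, edgeR adjusted p = 3.7e-07). Seed storage and oil body transcripts were highest in the same library. The summed level of the 3 of 6 seed markers that were tested was 0 to 0.348 CPM in control and 1.59 to 23.8 CPM in the cold. The storage protein gene CRA1 had 2, 3, 0 and 0 counts in control and 12, 12, 5 and 286 in the cold, EM6 had 5, 3, 5 and 0 against 6, 6, 13 and 38, and OLEO1 had 0 in every control against 15, 16, 25 and 42. OLEO1 was at least 39.5-fold higher, taking 3 counts over the control group as the floor. The median log2 fold change of the 3 genes was 5.31 with OLEO1 at that bound. The calls of RD29B, LEA7 and HAI3 were the same without cold replicate 4, and the part of the seed transcripts in these results was not tested.

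Genes of light harvesting fell, and 0 of those tested rose. Of 24 genes of antenna proteins and Rubisco, 18 fell (15 without control replicate 3), with a median log2 fold change of -1.03. LHCB4.2 (AT3G08940, chromosome 3, 2717557 to 2718923, plus strand), which encodes a minor antenna protein of photosystem II, was at 1109, 1510.2, 1805 and 1246 CPM in control and 185, 197, 152 and 113 CPM in the cold (log2 fold change -3.13, SE 0.27, edgeR adjusted p = 2.17e-09). LHCB2.2 (AT2G05070, chromosome 2, 1799234 to 1800472, minus strand), of the major antenna, was at 939, 1162, 1269 and 958 CPM in control and 266, 306, 251 and 183 CPM in the cold (log2 fold change -2.11, SE 0.24, edgeR adjusted p = 1.77e-07). Both had every cold library below every control. The fall was uneven within the family: LHCB1.4 fell by 3.11, while LHCB1.1, LHCB1.2 and LHCB1.3 were at 0.33, -0.68 and -0.36 and were not called. Among the Rubisco small subunit genes, RBCS2B fell by 2.22 and RBCS1A was at -0.41 (edgeR adjusted p = 0.124). These genes have near-identical copies: 40.4% of the 31-base words of LHCB2.2, 23.5% of LHCB1.4, 32.1% of LHCB1.3 and 33.7% of RBCS2B occur elsewhere in the genome, so their split between copies is uncertain. The gene AT3G08943 overlaps LHCB4.2 on the opposite strand.

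By the KEGG annotation in the deposited table, 52 of 74 photosynthesis genes (70.3%) and 15 of 21 antenna genes (71.4%) fell, and 2 and 1 rose. Chlorophyll metabolism moved less, with 10 of 23 genes lower and 2 higher (over all genes, 26% and 26.5%). CHLM, the methyltransferase gene of magnesium protoporphyrin, fell from 427 ± 59.1 to 101 ± 14.3 CPM. Of the protochlorophyllide reductase genes, PORA was at 19.6, 18.6, 7.99 and 15.7 CPM in control and 2.06, 6.29, 5.88 and 4.71 CPM in the cold (log2 fold change -1.71, SE 0.34, edgeR adjusted p = 0.000235), without overlap, and PORB fell from 1204 ± 85.2 to 309 ± 47.7 CPM, with AT4G27450 overlapping PORB on the opposite strand. SGR1, which encodes a chlorophyll-degrading magnesium dechelatase, rose from 14.1 ± 2.13 to 42.8 ± 2.19 CPM. The rise of HEMA1 (0.58) was lost with library totals (edgeR adjusted p = 0.0641), and the number that rose was 6 without control replicate 3 and 1 with library totals.

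Flavonoids absorb ultraviolet light and scavenge reactive oxygen, and the genes that make them rose together. Of 33 phenylpropanoid and flavonoid genes tested, 27 rose and 3 fell, with a median log2 fold change of 2.37. CHS (AT5G13930, chromosome 5, 4488476 to 4490264, plus strand), the gene of chalcone synthase, the entry enzyme, was at 62.8, 52.8, 61.1 and 39.7 CPM in control and 1493, 1183, 1160.5 and 1507 CPM in the cold (log2 fold change 4.63, SE 0.26, edgeR adjusted p = 2.16e-12). F3H, of flavanone 3-hydroxylase, was at 2.13, 0.995, 1.17 and 1.44 CPM in control and 80.6, 90.7, 60.03 and 75.7 CPM in the cold (log2 fold change 5.74, SE 0.31, edgeR adjusted p = 7.72e-13). UGT78D3, a flavonol glycosyltransferase gene, was at 0, 0.0355, 0.208 and 0.0436 CPM in control and 61.3, 56.1, 67.7 and 40.9 CPM in the cold (log2 fold change 9.55, SE 0.47, edgeR adjusted p = 1.76e-13). All 3 had separate groups, and UGT78D3 was at or near 0 in each control library. CHI, of chalcone isomerase, rose from 11.99 ± 2.35 to 326 ± 61.0 CPM. Annotated genes on the opposite strand overlap CHS (AT5G13940) and F3H (AT3G51238), and 7.91% of the 31-base words of UGT78D3 occur elsewhere.

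Of the 33 listed genes 3 were not called, DFR and UGT79B1 of the anthocyanin branch among them. The enzyme genes given here are only some of those in the list. The flavonol synthase gene FLS1 was at a log2 fold change of 4.65 (SE 0.23), while DFR, of the enzyme that opens the anthocyanin branch, was at 0.33 (SE 0.32) and was not called. LDOX, of the next enzyme, rose by 0.91, and UGT79B1 was at 0.17, not called. PAP1, the gene of a MYB activator of anthocyanin genes, was at 3.25, 2.98, 2.08 and 2.84 CPM in control and 10.6, 16.4, 13.5 and 8.99 CPM in the cold (log2 fold change 2.14, SE 0.29, edgeR adjusted p = 2.32e-06), and PAP2 rose from 0.174 ± 0.142 to 6.52 ± 2.67 CPM. MYBL2, which encodes a repressor of the branch, fell, as did its co-regulator TTG1 and PAL3, with log2 fold changes of -0.83, -0.64 and -1.10.

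Aliphatic glucosinolates are defence compounds made from methionine, and each of the 11 tested genes of their synthesis fell (9 without control replicate 3), with a median of -1.07. The activator MYB28 fell from 85.9 ± 19.4 to 36.6 ± 3.13 CPM, the chain elongation gene BCAT4 from 149 ± 29.8 to 49.96 ± 16.7 CPM, and CYP79F1, which starts the core pathway, from 172 ± 43.1 to 44.6 ± 12.98 CPM (SD, n = 4). UGT74C1 fell by 1.29.

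Clock genes stood at other levels after 24 h in the cold. Of 28 tested, 21 rose and 2 fell, with a median log2 fold change of 1.52. LHY (AT1G01060, chromosome 1, 33365 to 37871, minus strand), a morning MYB factor gene, was at 1.59, 2.06, 2.08 and 1.35 CPM in control and 289, 383, 331 and 429.7 CPM in the cold (log2 fold change 7.65, SE 0.32, edgeR adjusted p = 1.58e-14). CCA1 (AT2G46830, chromosome 2, 19245591 to 19248915, plus strand), its partner, was at 10.2, 8.95, 13.4 and 10.3 CPM in control and 582, 679, 572 and 712 CPM in the cold (log2 fold change 5.90, SE 0.25, edgeR adjusted p = 2.05e-14). TOC1 (AT5G61380, chromosome 5, 24674963 to 24678550, plus strand), an evening gene, was at 131, 145, 189 and 191 CPM in control and 295, 381, 327 and 386 CPM in the cold (log2 fold change 1.08, SE 0.14, edgeR adjusted p = 9.45e-07). LHY, CCA1 and TOC1 were thus each higher in every cold library than in any control, with the larger changes in LHY and CCA1. RVE1 and RVE8, of the same MYB family, rose by 5.02 and 4.55. CHE fell from 57.8 ± 8.69 to 10.9 ± 2.46 CPM and LUX fell by 0.62 on the log2 scale. The labels give no hour of harvest, so a shift in phase and a change in amplitude cannot be told apart.

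The flowering list held 7 genes that rose and 2 that fell of 16 (over all genes, 26.5% and 26%). FLC, the repressor that prolonged cold silences, was at 1.01, 0.426, 0.250 and 0.872 CPM in control and 0.608, 1.21, 1.04 and 0.866 CPM in the cold (log2 fold change 0.54, SE 0.54, edgeR adjusted p = 0.419), with overlapping groups and low levels throughout. SOC1, a floral integrator gene, rose from 92.8 ± 9.32 to 262 ± 18.4 CPM, the repressor gene SMZ from 1.27 ± 0.349 to 8.69 ± 1.28 CPM, and COL2 by 1.56. VIN3, of a cold-induced protein that starts the silencing of FLC, rose from 0.0488 ± 0.0486 to 1.803 ± 0.222 CPM, and MAF1 fell by 0.45. The fall of SNZ (-0.55) was lost without cold replicate 1, 3 or 4 or control replicate 4, and MAF3 (0.68) was not called with library totals (edgeR adjusted p = 0.12).

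Chaperone genes rose in the cold. Of 24 chaperone and heat shock factor genes, 17 rose and 2 fell, with a median of 1.59. HSP70 (AT3G12580, chromosome 3, 3991117 to 3993886, minus strand) was at 15.5, 14.996, 34.2 and 10.3 CPM in control and 709.8, 502, 566 and 741 CPM in the cold (log2 fold change 5.07, SE 0.37, edgeR adjusted p = 1.34e-10). HSP17.6II, of a small heat shock protein, was at 0.193, 0.0355, 0.416 and 0.0436 CPM in control and 28.9, 17.3, 25.8 and 29.5 CPM in the cold (log2 fold change 7.18, SE 0.61, edgeR adjusted p = 1.37e-09). For both, each cold library was above each control, and the highest control was replicate 3. HSP17.7 rose by 6.81 and HSP90.1 by 3.91. The factor genes HSFA3 and HSFA7A fell (log2 fold changes -1.20 and -1.27), and the call of HSFA7A was lost without cold replicate 1 or 3 or control replicate 1.

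**Figure D3:**
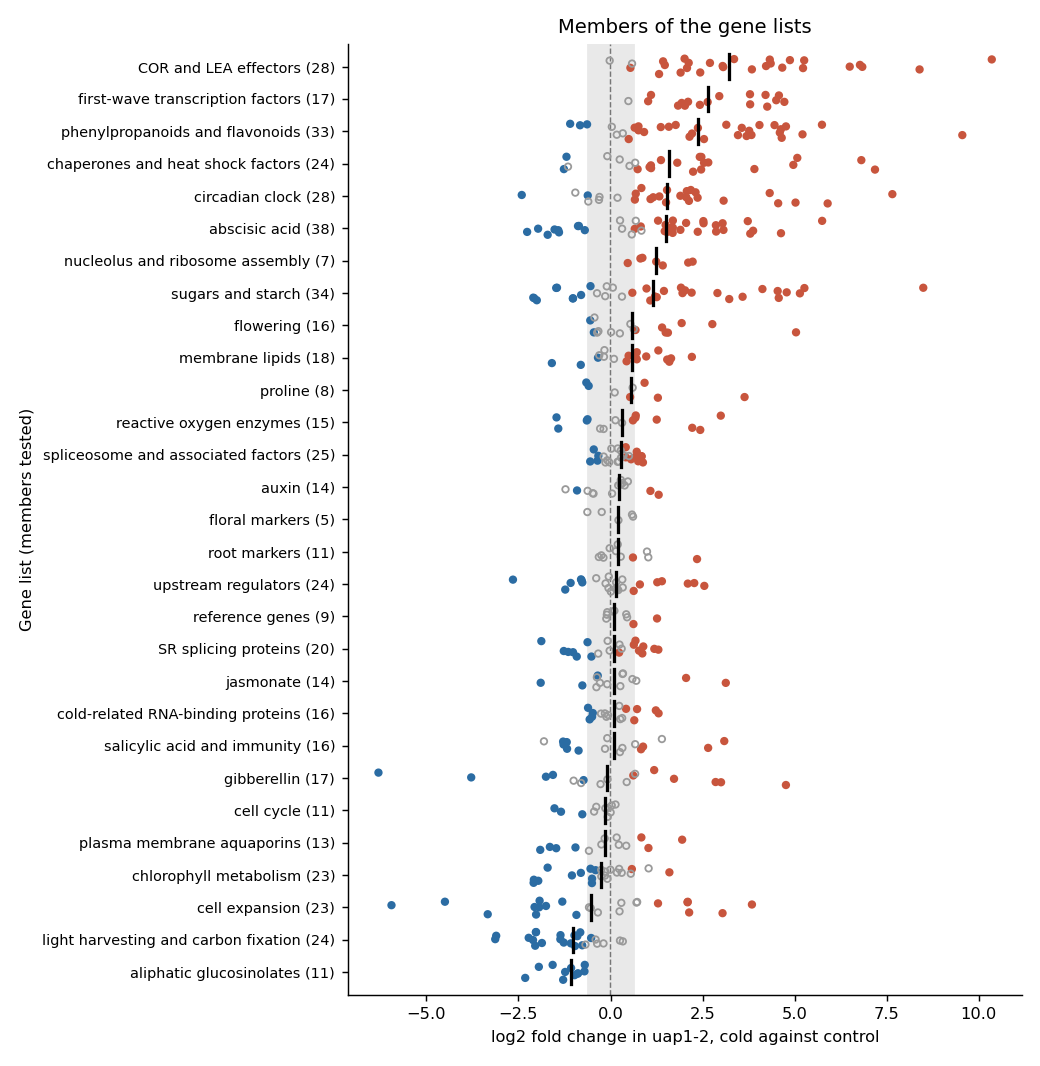
Log2 fold change of each tested member of the 29 lists with at least 5 tested genes, one list per line and sorted by median (black bar). Filled points were called by edgeR (red higher, blue lower) and open points were not; the grey band is the middle 50% of all genes, from -0.62 to 0.63. COR and LEA genes have the highest median, 3.21, and aliphatic glucosinolate genes the lowest, -1.07.

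Splicing factor genes changed in both directions. SR proteins bind exons and recruit the spliceosome. Of 20 SR genes, 8 rose and 7 fell (over all genes, 26.5% and 26%), with a median log2 fold change of 0.10. SCL33 (AT1G55310, chromosome 1, 20629698 to 20633007, plus strand) was at 53.8, 56.6, 55.9 and 66.5 CPM in control and 18.18, 13.5, 16.5 and 14.96 CPM in the cold (log2 fold change -1.88, SE 0.16, edgeR adjusted p = 2.42e-09). SCL30A (AT3G13570, chromosome 3, 4429256 to 4432159, minus strand) was at 50.7, 38.6, 44.4 and 52.0 CPM in control and 116, 117, 102 and 87.8 CPM in the cold (log2 fold change 1.19, SE 0.16, edgeR adjusted p = 1.6e-06). SR45A was at 37.2, 37.6, 49.4 and 40.8 CPM in control and 56.8, 29.3, 45.2 and 30.7 CPM in the cold (log2 fold change -0.03, SE 0.20, edgeR adjusted p = 0.928). SCL33 and SCL30A moved apart with no overlap of groups, and the groups of SR45A overlapped. RSZ22A rose by 1.298, SR45 by 0.89 and RS2Z32 by 0.86, and SR34B, RS31A and RSZ21 fell (log2 fold changes -1.27, -1.15 and -1.02). Counts per gene do not separate splice forms, so splicing itself was not measured here.

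Core spliceosome and associated factors also moved both ways. Of 25, 9 rose and 4 fell (over all genes, 26.5% and 26%), with a median of 0.28. The number that fell was 2 without cold replicate 3. MAC3A, of the MOS4-associated complex, rose from 35.4 ± 2.16 to 65.2 ± 5.603 CPM, and its close relative MAC3B fell from 137 ± 8.35 to 99.6 ± 17.8 CPM. The tri-snRNP factor gene STA1, needed for cold tolerance, rose by 0.84, the cap-binding gene CBP80 by 0.84 and LSM8 by 0.75. U2AF65B fell by 0.55, a call lost without control replicate 4 (edgeR adjusted p = 0.0704). The calls of U1A and CBP20, which also fell, were lost in 3 and 2 of the 14 alternatives. In the wider KEGG spliceosome annotation 80 of 197 genes rose (40.6%) and 30 fell (15.2%), with a median of 0.33.

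Among 16 genes of RNA-binding proteins tied to cold, 5 rose and 4 fell (over all genes, 26.5% and 26%). CSP1, of a cold shock domain protein that melts RNA structure, was at 41.8, 31.6, 32.6 and 28.7 CPM in control and 98.5, 69.7, 79.9 and 67.9 CPM in the cold (log2 fold change 1.23, SE 0.21, edgeR adjusted p = 2.95e-05), without overlap. GRP7, of a glycine-rich protein and clock output, was at 3686, 2997, 3571 and 4031 CPM in control and 5133, 4339, 4580.3 and 3717 CPM in the cold (log2 fold change 0.31, SE 0.20, edgeR adjusted p = 0.196), with overlap. UBP1C fell by 0.48. The falls of the other 3 were lost without 1 or more libraries: GRP8 (-0.57) without cold replicate 2 or 4, CP29A (-0.50) without cold replicate 4 or control replicate 4, and CP31A (-0.61) without cold replicate 2, 3 or 4 or control replicate 1 or 3. The number that fell was 2 without cold replicate 2 and 1 without cold replicate 4. LOS4, of an RNA helicase needed for cold tolerance, rose by 0.42, a call lost with library totals (edgeR adjusted p = 0.252).

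Genes that assemble ribosomes in the nucleolus rose. Each of the 7 listed genes was called higher (6 without control replicate 3), with a median of 1.24. FIB2, of fibrillarin, which methylates ribosomal RNA, rose from 38.8 ± 11.5 to 167 ± 15.8 CPM (log2 fold change 2.11, SE 0.18, edgeR adjusted p = 1.45e-09), NUC1, of nucleolin, from 423 ± 76.1 to 999.9 ± 30.7 CPM, and REIL2, of a late ribosome assembly factor needed for growth in the cold, from 50.5 ± 13.04 to 135 ± 9.05 CPM. In the KEGG annotation 63 of 95 ribosome biogenesis genes rose (66.3%) and 3 fell (3.16%), with a median log2 fold change of 0.93. Genes of the ribosome itself had calls in both directions: 54 of 336 genes of the KEGG ribosome rose (16.1%) and 46 fell (13.7%), with a median of 0.06. The proteasome had 32 of 65 genes higher (49.2%) and 1 lower, with a median of 0.34.

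The promoter of FIB2 is shown for the telo-box AAACCCTA, in capitals, an element known from ribosome genes (TAIR10.1, chr4:13073840-13074139, plus strand).
FIB2: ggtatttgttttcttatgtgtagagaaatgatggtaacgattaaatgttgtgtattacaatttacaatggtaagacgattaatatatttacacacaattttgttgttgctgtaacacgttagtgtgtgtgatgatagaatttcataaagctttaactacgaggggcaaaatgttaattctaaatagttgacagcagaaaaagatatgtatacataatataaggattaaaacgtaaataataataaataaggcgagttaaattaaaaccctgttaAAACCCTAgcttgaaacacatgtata
The telo-box was found in 25.5% of 94 promoters of ribosome biogenesis genes (24 promoters), 6.22% of all promoters and 3.57% of those called at least 4-fold higher. The site II element TGGGCC was found in 36.2% of the ribosome biogenesis promoters, 15.5% of all promoters and 10.0% of those called at least 4-fold higher. The gene AT4G25631 overlaps FIB2 on the same strand in the annotation.

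**Figure D4:**
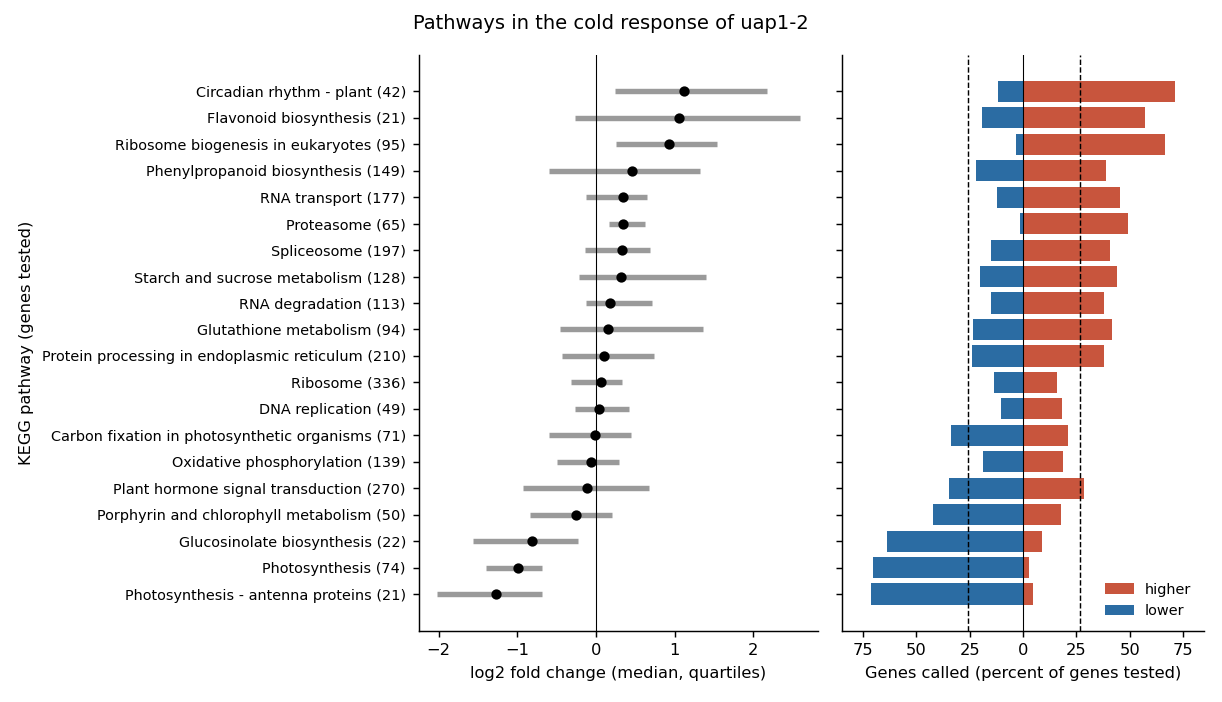
Left, median (point) and quartiles (bar) of the log2 fold change of the tested genes in 20 KEGG pathways of the deposited annotation; right, percent of those genes called higher (red) or lower (blue). Dashed lines mark the shares over all genes, 26.5% higher and 26% lower. Ribosome biogenesis reached 66.3% higher and photosynthesis 70.3% lower, while the ribosome stayed below both lines at 16.1% and 13.7%.

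Genes of cell expansion moved both ways. Of 23 expansin, xyloglucan hydrolase and PRE genes, 10 fell and 6 rose (over all genes, 26% and 26.5%), with a median of -0.54. EXPA8 (AT2G40610, chromosome 2, 16948791 to 16950705, minus strand), of a wall-loosening expansin, was at 58.2, 78.5, 129 and 60.8 CPM in control and 2.06, 1.05, 1.08 and 1.06 CPM in the cold (log2 fold change -5.95, SE 0.46, edgeR adjusted p = 3.35e-10). PRE1, of a small growth-promoting bHLH protein, was at 3.83, 4.02, 3.70 and 4.45 CPM in control and 0.514, 0.105, 0.588 and 0.337 CPM in the cold (log2 fold change -3.34, SE 0.46, edgeR adjusted p = 2.22e-06). For both, all cold libraries lay below all controls. EXPA4, EXPA6 and EXPA1 fell (log2 fold changes -2.06, -2.02 and -1.93), and EXPA10 rose from 87.7 ± 19.7 to 375 ± 61.0 CPM. The xyloglucan enzyme genes XTH20 and XTH18 rose by 3.84 and 3.04.

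Gibberellin, which promotes growth by removing DELLA repressors, had 6 genes higher and 5 lower of 17 (over all genes, 26.5% and 26%). The deactivating oxidase genes GA2OX1 and GA2OX6 rose from 1.51 ± 0.789 to 12.2 ± 1.78 CPM and from 3.06 ± 1.51 to 22.2 ± 8.79 CPM. The synthesis gene GA20OX2 fell by 3.78. Its relative GA20OX1 was at 1.31, 2.56, 1.249 and 1.74 CPM in control and 0.935, 0.891, 1.54 and 0.0481 CPM in the cold (log2 fold change -1.003, SE 0.52, edgeR adjusted p = 0.11), not called, although it was called without cold replicate 3 (edgeR adjusted p = 0.0396). Of the DELLA genes GAI fell from 54.3 ± 3.95 to 18.3 ± 1.32 CPM. RGL3, another DELLA gene, was at 4.06, 4.73, 4.12 and 4.1004 CPM in control and 9.68, 4.87, 5.11 and 6.44 CPM in the cold (log2 fold change 0.62, SE 0.25, edgeR adjusted p = 0.0425). This call was lost in 9 of the 14 alternatives, among them each leave-out of a control library. GASA6 (AT1G74670, chromosome 1, 28053030 to 28054149, plus strand), of a small gibberellin-regulated wall protein, was at 291, 302, 405 and 264 CPM in control and 7.90, 2.097, 3.21 and 2.69 CPM in the cold (log2 fold change -6.30, SE 0.46, edgeR adjusted p = 1.35e-10), the largest fall among genes at a mean of 10 CPM or more in either group with separate groups, and AT1G74675 overlaps it on the opposite strand.

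Few auxin and cell cycle genes were called, against 26.5% higher and 26% lower over all genes. Of 14 auxin genes, 2 rose (IAA3 by 1.31 and IAA17 by 1.08) and IAA29 fell by 0.91, a call lost under the replicate block, without the filter on low counts and in leave-outs of cold replicate 2 or 3 or control replicate 1 or 3. The number of auxin genes that fell was 3 with library totals and 2 from the 8 uap1-2 libraries alone. Of 11 cell cycle genes 0 rose and 3 fell, by edgeR: CYCD3;1 (-1.52), CYCA2;3 (-1.35) and CYCA1;1 (-0.77 on the log2 scale). The mitotic cyclin gene CYCB1;1 was at 14.7, 8.95, 4.50 and 10.7 CPM in control and 7.25, 11.9, 10.1 and 7.60 CPM in the cold (log2 fold change -0.08, SE 0.27, edgeR adjusted p = 0.833), with overlap. Aquaporins of the plasma membrane had 3 of 13 higher and 4 lower (over all genes, 26.5% and 26%). PIP2;6 was at 249.6, 261, 367 and 234 CPM in control and 702, 569, 575 and 425 CPM in the cold (log2 fold change 1.03, SE 0.23, edgeR adjusted p = 0.000778), and PIP1;5 fell from 102 ± 44.7 to 27.1 ± 8.62 CPM.

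Defence and redox genes moved in both directions. Of 16 genes of salicylic acid and immunity, 4 rose and 5 fell (over all genes, 26.5% and 26%). PR5 was at 3.09, the calmodulin-binding factor CBP60G at 2.65, the synthesis gene ICS1 at -1.19 and WRKY70 at -1.29. PR1 was at 0.0387, 4.62, 18.1 and 0.0436 CPM in control and 11.6, 0.629, 7.64 and 1.54 CPM in the cold (log2 fold change -0.09, SE 1.18, edgeR adjusted p = 0.958), and varied more within each group than between them. Of 14 jasmonate genes 2 rose (JAZ1 by 3.13 and JAZ9 by 2.05) and 3 fell, with the call of JAR1 lost in 3 of the 14 alternatives. VSP2, of a vegetative storage protein, was at 295, 292, 172 and 438 CPM in control and 67.6, 54.3, 107 and 92.5 CPM in the cold (log2 fold change -1.897, SE 0.38, edgeR adjusted p = 0.000204), without overlap. Among 15 genes of reactive oxygen enzymes, 7 rose (4 without control replicate 2 or 4) and 4 fell. The catalase gene CAT2 rose from 273 ± 103 to 1475 ± 165 CPM and CAT3 fell from 2057 ± 588 to 744 ± 219.8 CPM, while the alternative oxidase gene AOX1A rose by 2.22.

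Markers of other cell types and reference genes were read in the same libraries, in which 26.5% of all genes tested rose and 26% fell. Of 11 root markers 2 rose, SCR by 0.61 (not called with library totals, edgeR adjusted p = 0.0536) and IRT1 by 2.35, and 0 fell; their summed level was 92.6 to 109 CPM in control and 93.3 to 156 CPM in the cold. The guard cell genes MYB60 and FAMA rose by 1.62 and 0.80, and the phloem gene SUC2 was at 0.49. Of 5 floral markers 0 were called. Reference genes had 2 of 9 higher, GAPC1 at 1.262 and SAND at 0.62, with 0 lower, or 3 lower with library totals and 4 higher from the 8 uap1-2 libraries alone. EF1A was at 999.6, 902, 836 and 991 CPM in control and 1265, 1291, 1307 and 1144 CPM in the cold (log2 fold change 0.43, SE 0.19, edgeR adjusted p = 0.0594), called by DESeq2 (adjusted p = 0.0486) and from the 8 uap1-2 libraries alone (edgeR adjusted p = 0.0213). UBQ10 was at 875, 965, 1623 and 813 CPM in control and 1376, 963, 967 and 1137 CPM in the cold (log2 fold change 0.05, SE 0.25, edgeR adjusted p = 0.87), with control replicate 3 the highest library of all.

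The largest changes lay partly outside these lists. After ELIP2 and UGT78D3 the largest rises at 10 CPM or more were those of the Dof-type factor gene AT1G26790, LEA46, GOLS3, ELIP1, AT2G24560 and the LEA gene AT3G17520. AT1G26790 had 1 count in the 4 control libraries and 850 in the cold, which is a ratio of 1029 (95% interval from counting error alone, 184 to 40694). DOGL4 (AT4G18650), of the DOG1-like family, had 3 against 624 counts, a ratio of 252 (85.8 to 1224). These were the 2 genes with at most 3 counts over the control group and at least 5 CPM in the cold, and 0 genes had the opposite pattern. AT2G24560 was at 0.193, 0.0355, 0.0416 and 0.349 CPM in control and 32.8, 77.8, 46.1 and 39.8 CPM in the cold (log2 fold change 8.30, SE 0.54, edgeR adjusted p = 1.62e-11). AT3G17520 was at 0.464, 0.0355, 0.291 and 0.305 CPM in control and 52.4, 76.3, 45.9 and 155 CPM in the cold (log2 fold change 8.23, SE 0.72, edgeR adjusted p = 2.65e-09), highest in cold replicate 4. The largest falls after GASA6 were AT2G05160 (-6.29), AT2G29300 (-6.04), EXPA8, AT1G07187 (-5.72), AT1G68190 (-5.70), AT4G27450 (-5.36) and the acyl carrier protein desaturase gene S-ACP-DES6 (-5.36). Genes were ranked here only if their groups did not overlap, so each cold library lay below each control by that choice.

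The response of uap1-2 was then set against those of WT and uap1-1, which have control libraries of their own. Both differences use the same 8 uap1-2 libraries. The difference between uap1-2 and WT, tested as an interaction, gave 0 calls of 21428 genes (0%) by edgeR and 0 by DESeq2. At an unadjusted p under 0.05 there were 371 genes by edgeR and 482 by DESeq2. If no gene differed, evenly spread p-values would put more genes than either number under 0.05. The median difference was 0.04 on the log2 scale, 90% of genes lay between -0.48 and 0.68, and the median SE was 0.33. Of the 6227 genes called at least 2-fold in uap1-2, 6209 had the same sign in WT and 5767 differed from WT by at most 1 on the log2 scale.

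Of the 548 tested list entries, 522 differed from WT by at most 1. CBF1, CBF2 and CBF3 had log2 fold changes of 2.29, 3.59 and 2.51 in WT against 2.43, 3.79 and 2.95 in uap1-2. COR15A was at 3.82 in WT against 4.35, and SCL33 at -1.76 against -1.88. The largest positive difference among the members was that of CRA1 at 5.71, whose cold counts lay mostly in replicate 4, and the largest negative one that of UGT78D3 at -1.56. Neither was called (edgeR adjusted p = 1 in both).

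**Figure D5:**
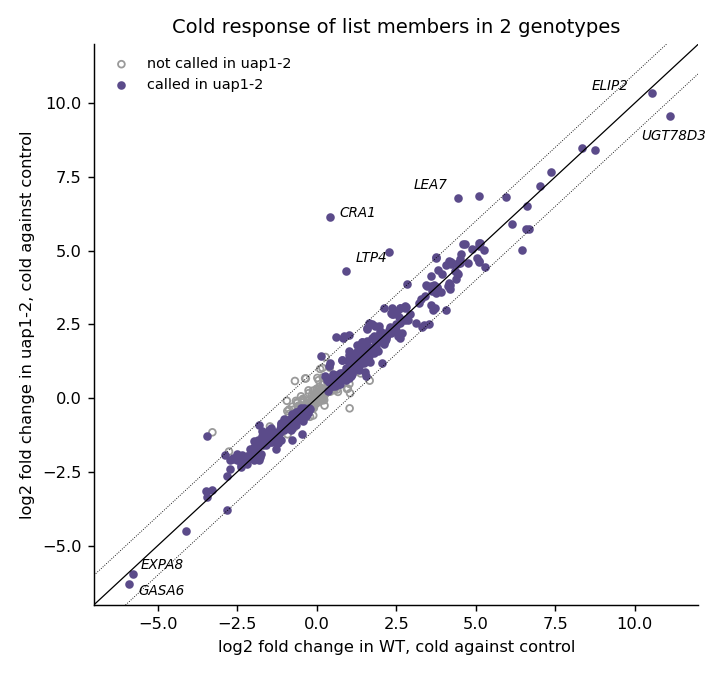
Log2 fold change, cold against control, of the tested list members in WT (across) and in uap1-2 (upward), each from its own control and cold libraries; OLEO1, with 0 counts in uap1-2 control, is left out. The solid line marks equal change and the dotted lines a difference of 1; filled points were called in uap1-2. The members lie along the line, and the seed marker CRA1 lies farthest above it.

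Against uap1-1, 1 of 21428 genes was called by edgeR (0.00467%), and DESeq2 called 2. By edgeR 1625 genes were at an unadjusted p under 0.05, more than evenly spread p-values would give, and the cause was not tested. The gene called by edgeR was UGT78D4 (AT5G17040, chromosome 5, 5605201 to 5607128, minus strand), the neighbour of UGT78D3. In uap1-2 it was at 0.580, 0.462, 0.416 and 0.436 CPM in control and 42.1, 34.8, 31.3 and 43.4 CPM in the cold, a log2 fold change of 6.30 (SE 0.20), against 4.70 in uap1-1 and 5.89 in WT. The groups did not overlap, and the control level was 1.67 CPM in uap1-1 against 0.474 in uap1-2. The difference was 1.60 (SE 0.25, edgeR adjusted p = 0.0392), and the call was lost in 18 of the 23 alternatives, which gave differences of 1.37 to 1.84, with an edgeR adjusted p of 0.0507 to 0.514 where it was lost. With the replicate block the difference was 1.59 (edgeR adjusted p = 0.0709), and with the block within each condition it was 1.58 (edgeR adjusted p = 0.0756). Of the 6227 genes above, 6181 had the same sign in uap1-1 and 5555 differed by at most 1.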

How the data were processed

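The authors deposited 1 table with counts per gene and FPKM values for all 24 libraries. The submitters' processing notes name the build TAIR10 and the tools HTSeq 0.6.1, HISAT2 2.2.1, cutadapt 1.9.1, StringTie 1.3.3b and DESeq2 1.26.0, without their roles. Whether counting used strand is not given in these sources. FPKM equalled the deposited count over length and library total within 0.005. Deposited counts were fitted with edgeR 4.0.16 (R 4.3.3): 24 libraries, 6 group means, TMM scaling, 21428 of 32833 genes after filterByExpr (minimum count 10, minimum total 15), quasi-likelihood tests, and Benjamini-Hochberg adjustment at 0.05. SE is the log2 fold change over the root of F. CPM values were computed from the counts with TMM. Intervals cover counting error only, since reads without molecular identifiers are not independent molecules. The tests were also run on simulated counts, where they missed most 2-fold changes. There the difference to WT gave a larger share of false calls than the 0.05 set. DESeq2 1.42.0, other scalings, no filter, the 8 or 16 libraries alone, a replicate block and leave-outs were alternatives. Coordinates, promoters and gene overlaps come from RefSeq's TAIR10.1 annotation, in which 32531 of 32547 matched loci have the deposited start and end.

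Members and lists were chosen with earlier results of these data known. Named were up to 4 called members per list and direction with at least 5 CPM, anchor genes, the 8 largest rises and falls at 10 CPM or more with separate groups, and genes called in a difference between genotypes. Other names were chosen after their values were seen. Of 578 genes checked, 31 have over 10% of their 31-base words elsewhere in the genome, and 132 overlap a gene on the opposite strand, whose reads cannot be told apart without strand. These overlaps are named above for only some genes. Those left unmarked include P5CS1, P5CS2, LEA7, ABA2, SNRK2.3, CHLM, NUC1, BCAT4, RVE1 and CAT2.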

Additional observations from a re-analysis of the deposited data

Results flagged for a closer look

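Of 400 groups of 4 libraries examined for named genes, 23 held a library whose gap to its nearest neighbour exceeded Dixon's limit as a share of the group's range, and chance flags about 5% of such groups.

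In uap1-2 control, replicate 3 stood apart for 6 genes. Its CPM was 19.4 against 3.88 to 5.49 for ZAT6 (gap 0.897 of the range), 128 against 41.5 to 55.2 for GASA1 (0.842), 28.6 against 11.8 to 14.5 for RD26 (0.838), 20.2 against 11.6 to 12.6 for HSP90.1 (0.882), 3206 against 2109 to 2153 for LHCB1.4 (0.961) and 0.0416, a single count, against 0 for AT1G26790 (gap 1). Replicate 4 stood apart for ABA2, at 13.1 against 17.397 to 17.8 CPM (0.909), SCR, at 26.7 against 21.5 to 22.1 (0.89), and CAMTA1, at 80.1 against 51.8 to 56.0 (0.85). Replicate 2 stood apart for SOC1, at 78.9 against 95.5 to 98.8 CPM (0.834), GRP8, at 630.5 against 724 to 741 (0.843), and RGL3, at 4.73 against 4.06 to 4.12 (0.909). Replicate 1 stood apart for LSM8, at 27.5 against 19.01 to 20.4 CPM (0.836), and CSP3, at 39.4 against 30.8 to 32.2 (0.837).

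In uap1-2 cold, replicate 1 stood apart for RAP2.1, at 116 against 91.6 to 94.3 CPM (0.887), PUB26, at 6.92 against 5.87 to 6.01 (0.866), RGL1, at 3.74 against 5.29 to 5.50 (0.878), and EXPA8, at 2.06 against 1.05 to 1.08 (0.964). The 10 most abundant genes held 8.26% of its counts against 7.43% to 7.53% in the other cold libraries (0.88). Replicate 2 stood apart for ACBP6, at 128 against 153 to 157 CPM (0.851), U2AF65B, at 66.4 against 52.6 to 54.8 (0.843), and U1A, at 30.8 against 23.1 to 23.61 (0.933). Replicate 3 stood apart for PROT1, at 30.7 against 25.1 to 25.9 CPM (0.867), and replicate 4 for RD29A, at 15019 against 12081 to 12507 (0.855).

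The cold response of UGT78D4 differed between uap1-2 and uap1-1 by 1.60 on the log2 scale, by the interaction test given above. This call was lost in 18 of the 23 alternatives.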

How the results depend on the processing

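The number of genes called in uap1-2 was 11266 with RLE size factors, 11196 with library totals, 11156 without the filter on low counts, 11878 by DESeq2, 11125 from the 8 libraries alone and 11281 with the replicate block, and 10229 to 10836 with 1 library left out (5180 to 5532 higher, 5042 to 5352 lower). Same-numbered uap1-2 cold and control libraries did not deviate together (correlations of -0.142 to -0.045), so the numbers were not used as pairs of cold and control. Same-numbered uap1-2 and uap1-1 libraries did deviate together in the cold (0.233 to 0.536, each highest with its own number), but not in every pair of control (-0.302 to 0.259). The difference to WT had 0 calls in every alternative. For the difference to uap1-1 the count was 0 with RLE, without the filter, with the replicate block (also within each condition, an alternative chosen after seeing the data) and from the 16 libraries alone, 2 by DESeq2, and 0 to 1 with 1 library left out. The cause was not tested. Of the 201 named results, 175 kept their call, or lack of one, in every alternative run, and no called change reversed. The log2 fold changes of PR1 (-0.79 to 1.75), CYCB1;1, SR45A and UBQ10, none of them called, took either sign. With 4 libraries a group, the median SE of a difference to WT was 0.33 on the log2 scale, so the lack of calls does not show that the responses were alike.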
